A study of Mus musculus with 49 samples.

Results

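The replication-dependent histone genes encode the bulk of the histones that package newly copied DNA, and their expression was followed in single late 2-cell mouse embryos in which TBP or FOXJ3 had been depleted (loss of function, LOF). Members were all protein-coding genes whose symbol begins with Hist1h, Hist2h, Hist3h or Hist4h, which gave 67 of the 54838 genes counted. The counts follow GENCODE M20, while symbols, biotypes, coordinates and transcript models came from the next GENCODE release, matched by gene ID. By class these were 6 genes for the linker histone H1, 18 for H2A, 18 for H2B, 12 for H3 and 13 for H4. The Hist1 cluster on chromosome 13 held 54 of them, the Hist2 cluster on chromosome 3 held 10, the Hist3 cluster on chromosome 11 held 2, and Hist4h4 on chromosome 6 stood alone. A further 3 genes with such a symbol but another biotype were left out.

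Replication-dependent histone genes are short, mostly without introns, and transcribed chiefly in S phase, when the coactivator NPAT gathers at the clusters. Their messengers usually carry no poly(A) tail. They end in a short stem-loop that is bound by the protein SLBP, and a 3′ cleavage by the U7 snRNP just after it makes the end. TBP, the TATA-binding protein, is the DNA-binding subunit of the general transcription factor TFIID, and FOXJ3 is a forkhead transcription factor.

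All embryos were F1(C57BL/6JxCBA/H) zygotes taken 17 to 18 h after hCG, injected with antibody, cultured for 4 h, injected with Trim21 mRNA, and grown in KSOM to 48 h after hCG. Trim21 drives degradation of the antibody-bound protein (Trim-Away), and the CONTROL embryos also received it. TBP LOF embryos carried anti-TBP and their CONTROL embryos mouse IgG (mIgG), whereas FOXJ3 LOF embryos carried anti-FOXJ3 and their CONTROL embryos rabbit IgG (rIgG), in 2 library batches. Of the 49 embryos, 47 passed the quality limits of the study, leaving 9 TBP LOF, 9 mIgG CONTROL, 16 FOXJ3 LOF and 13 rIgG CONTROL embryos. Each library is 1 whole embryo, so fewer cells and less RNA per cell cannot be told apart. Libraries were primed with oligo-dT, which binds poly(A), and only reads from transcript 5′ ends were counted, so a count here covers the histone transcripts that this priming captured.

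The kept embryos had 1103569 to 5434808 counted reads. Tbp mRNA was 77.0 ± 50.8 normalized counts (SD, n = 9) upon TBP LOF and 338 ± 149 (n = 9) in CONTROL (log2 fold change -2.14, adjusted p = 5.26e-06), and Foxj3 mRNA was 296 ± 60.2 (n = 16) upon FOXJ3 LOF and 247 ± 55.8 (n = 13) in CONTROL (0.28, adjusted p = 0.861, edgeR). Trim-Away acts on protein, so these mRNA levels do not test it. All 7 late 2-cell markers and all 6 oocyte markers of fixed lists had reads in each of the 4 groups. Of 7 cumulus cell markers, 2 had a read in each of the TBP groups and 4 in each of the FOXJ3 groups, with a summed level of 0 to 24.0 CPM (counts per 1e6 counted reads) per embryo.

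The stem-loop itself could be read in the annotated transcripts of 44 of the 67 genes, 21 to 58 bases after the stop codon. Of the other 23 genes, 15 have models that stop 0 to 2 bases after the stop codon and so could not hold it. The commonest form was shared by 26 genes of H1, H2A, H2B and H3, while the H4 genes used variants of their own. The 3 forms whose genes had the most reads are shown, in DNA letters of the transcribed sequence, with the paired stem in capitals and the loop in lower case.
H1, H2A, H2B and H3 (26 genes): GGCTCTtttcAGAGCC
H4 (7 genes): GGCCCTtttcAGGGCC
H4 (2 genes, Hist1h4i among them): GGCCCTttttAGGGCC
The annotated transcript ran on for at least 100 bases past the stem-loop in 22 of these 44 genes and ended sooner in the other 22. In Hist1h2ao and Hist1h2ap, the most abundant members, the stem-loop lies 38 bases after the stop codon, and the models end 31 and 3 bases after it.

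The promoters shown next belong to the 5 genes whose calls upon TBP LOF rested on the most reads: Hist1h2an and Hist1h2bp, which share a promoter region, Hist1h2ao, Hist1h2ap and Hist1h4i. Sequences are from RefSeq (GRCm38.p6), written 5′ to 3′ on the strand named, and capitals mark TATAA and CCAAT, where ATTGG is CCAAT on the other strand.
Between Hist1h2an and Hist1h2bp (chr13:21787249-21787460, − strand, read towards Hist1h2an): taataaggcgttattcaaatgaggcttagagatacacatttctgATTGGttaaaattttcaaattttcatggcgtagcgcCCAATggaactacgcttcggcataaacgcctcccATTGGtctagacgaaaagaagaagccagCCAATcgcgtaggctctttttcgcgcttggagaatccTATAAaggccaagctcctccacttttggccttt
Hist1h2ao (chr13:21810267-21810366, + strand): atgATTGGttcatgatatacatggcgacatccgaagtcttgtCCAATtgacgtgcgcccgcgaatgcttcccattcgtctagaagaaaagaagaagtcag
Hist1h2ap (chr13:21833508-21833607, − strand): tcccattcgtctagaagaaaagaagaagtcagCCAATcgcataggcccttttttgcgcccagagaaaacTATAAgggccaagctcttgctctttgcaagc
Hist1h4i (chr13:22041363-22041462, − strand): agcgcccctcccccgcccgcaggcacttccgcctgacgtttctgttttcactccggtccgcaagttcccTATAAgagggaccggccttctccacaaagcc
TATAA begins 33 bases before the RefSeq start of Hist1h2an and 31 bases before the start of Hist1h4i. In Hist1h2ap it begins 31 bases before the GENCODE start, which lies 32 bases upstream of the RefSeq start. No TATAA was found before the RefSeq start of Hist1h2ao, whose GENCODE start lies 98 bases downstream of it, outside the sequence held here.

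A RefSeq promoter matched 61 of the 67 genes. CCAAT, sought on both strands in the 250 bases before the start, was present in 82.0% of them and in 33.8% of all 32851 promoters. All 18 H2A promoters, 16 of the H2B promoters and 3 of 12 H4 promoters held it. The octamer ATTTGCAT, sought in the same way, was present in 21.3% of the histone promoters and 1.601% of all promoters, and its 13 carriers were 7 H2A and 6 H2B genes. TATAA on the gene's strand, between 40 and 20 bases before the start, was present in 26.2% of the histone promoters and 3.38% of all. These letters are a description of the windows and not mapped binding sites.

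Histone reads came mainly from a pair of H2A genes, Hist1h2ao and Hist1h2ap, except upon TBP LOF. Their median share of an embryo's histone reads was 25.9% upon TBP LOF, 69.4% in mIgG CONTROL, 68.9% upon FOXJ3 LOF and 64.8% in rIgG CONTROL. Over the 47 embryos 17525 reads fell on the 67 genes, of which H2A took 64.9%, H4 13.3%, H2B 10.1%, H3 7.46% and H1 4.23%. Hist1h2ao had 5789 reads, in 45 of 47 embryos, and Hist1h2ap had 4352 reads, in all 47. Most other members were sparse, with 24 genes having a read in at least 50% of the embryos and 14 having fewer than 10 reads in all. Hist1h1t, the testis linker histone, and Hist1h2bb had no read in any embryo.

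Per length, the H2A leaders remained far above the rest in the mean over all embryos, but less so upon TBP LOF. There Hist1h2ao averaged 65.4 and Hist1h2ap 70.5 CPM per kb, against 48.0 for Hist1h4i. Mean levels over 47 embryos were 112 CPM per kb of exon for Hist1h2ao and 99.3 for Hist1h2ap, against 15.5 for Hist1h2an, the next H2A gene. In H4, Hist1h4i led at 15.8 CPM per kb, followed by Hist1h4c at 5.81 and Hist1h4n at 5.42. This lead came largely from TBP LOF embryos, where Hist1h4i averaged 48.0 CPM per kb against 8.96 for Hist1h4c, while in mIgG CONTROL embryos the means were 6.31 and 4.43, well within the spread between embryos. Among H2B genes the means over all embryos were 5.82 for Hist1h2bk, 5.10 for Hist3h2ba and 4.97 CPM per kb for Hist1h2bp, but the groups differed. Hist1h2bp averaged 20.2 CPM per kb upon TBP LOF and 0.957 to 1.69 in the other 3 groups, where it lay below Hist1h2bk and Hist3h2ba. With the longest transcript as the length, Hist1h2bp stood at 5.65 CPM per kb over all embryos. The H3 leaders were Hist1h3g at 4.72, Hist2h3b at 2.99 and Hist1h3f at 2.71 CPM per kb, and the H1 leaders were Hist1h1a at 6.03, Hist1h1c at 1.34 and Hist1h1b at 1.12. Per kb, the order below Hist1h1a and within H3 changed between groups. Hist1h3g averaged 7.75 CPM per kb upon TBP LOF and 2.09 upon FOXJ3 LOF, where Hist1h3f averaged 2.75. Hist1h1b exceeded Hist1h1c per kb in both TBP groups only, but not in CPM. Because only 5′-end reads were counted, a longer transcript need not give more reads, so division by length can lower long genes. In CPM over all embryos, Hist1h3f led H3 at 3.41, above Hist1h3g. In H2B, Hist1h2bp at 3.51 and Hist1h2bc at 3.49 CPM stood above Hist3h2ba at 3.13 and Hist1h2bk at 2.77. The H1, H2A and H4 genes named here kept their order.

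**Figure D1:**
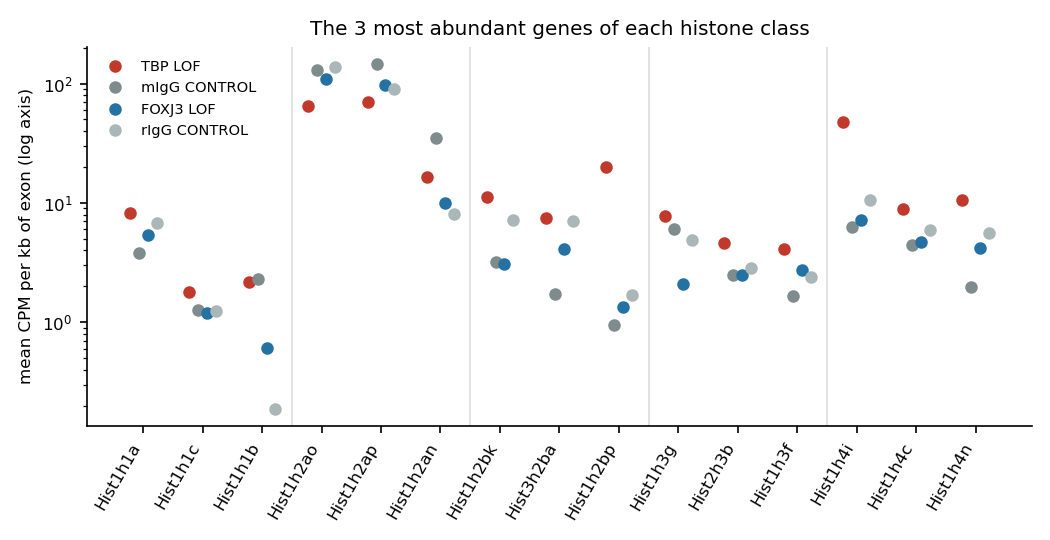
Mean level (CPM per kb of exon, log axis) of the 3 genes of each histone class with the highest mean per kb over all embryos, with 1 point per group of embryos. Hist1h2ao and Hist1h2ap stand above the other genes in every group, and in the TBP LOF embryos Hist1h2bp and Hist1h4i stand above their level in the other groups.

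Hist1h2ao and Hist1h2ap are nearly the same gene to a read counter. Hist1h2ao lies at chr13:21810465-21810944 on the + strand and Hist1h2ap at chr13:21833026-21833507 on the − strand, and 353 of the 381 windows of 100 bases in Hist1h2ao (92.7%) also occur in another gene, Hist1h2ap among them. The share of their joint reads given to Hist1h2ao ran from 0 to 88.5% over the 47 embryos with a median of 50.2%. It was below 25% in 6 embryos and above 75% in 11. In TBP LOF embryo 2 the gene had 0 of 79 joint reads, which allows a share of up to 3.80%, and in FOXJ3 LOF batch 2 embryo 3 it had 0 of 47, which allows up to 6.38%, by counting error alone. The joint level varied less than either part in each group, most clearly in mIgG CONTROL embryos, where the coefficient of variation was 57.8% for Hist1h2ao, 50.5% for Hist1h2ap and 19.7% for the sum. Parts of similar size that vary independently would also give a sum with a lower coefficient. How far the values here differ from that was not tested. In the other groups the sum stood at 71.7% upon TBP LOF, against 79.6% for Hist1h2ap, at 37.4% upon FOXJ3 LOF, against 43.3% for Hist1h2ap, and at 38.5% in rIgG CONTROL, against 54.1% for Hist1h2ao. The cause of the uneven split was not tested.

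**Figure D2:**
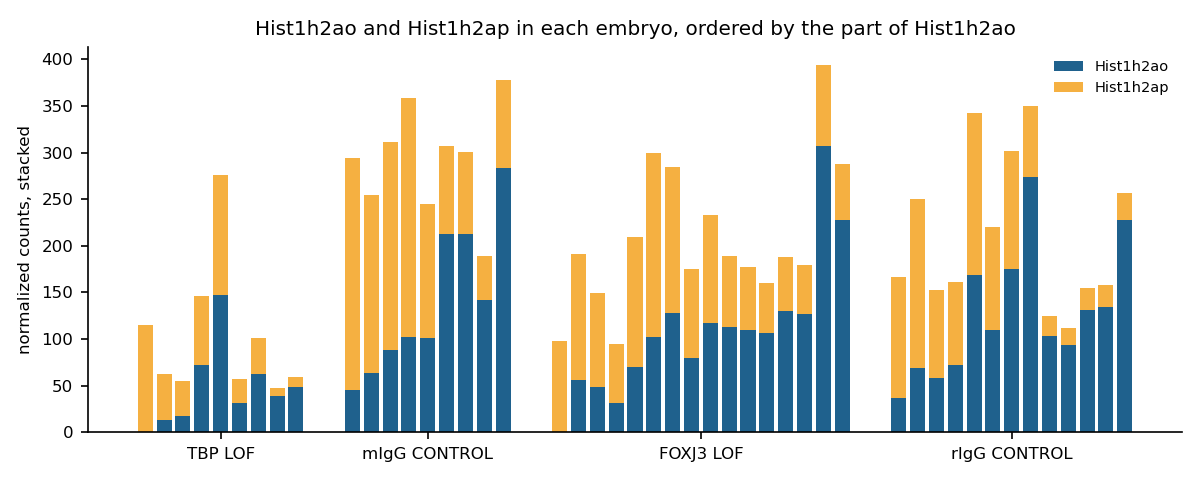
Normalized counts of Hist1h2ao and Hist1h2ap stacked for each of the 47 embryos, ordered within each group by the share of Hist1h2ao; the TBP and FOXJ3 embryos were scaled separately. The part taken by Hist1h2ao runs from 0 to 88.5% of the joint reads, while the height of the bars varies less among the mIgG CONTROL embryos.

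Upon TBP LOF the leading H2A genes were lower, while Hist1h2bp of H2B and Hist1h4i of H4 were higher. The fit compared 9 TBP LOF with 9 mIgG CONTROL embryos over 19356 genes and TE families, scaled by the ERCC spike-ins so that a general loss of RNA stays visible (edgeR quasi-likelihood test, two-sided, Benjamini-Hochberg adjustment over all features, threshold 0.05). Across all features 29.7% were called lower and 1.34% higher. Of 43 histone genes tested, 3 were called lower (6.98%) and 5 higher (11.6%). The median log2 fold change was 0.47 over these 43 genes and -0.72 over all features tested, and 37 of the 43 lay above the median of all.

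These counts hang on a filter that asked for a read in 25% of the 18 embryos, that is, in 5 of them. Of the 43 genes, 20 had a read in 5 or more embryos of each group, 11 in 5 or more TBP LOF embryos but fewer CONTROL embryos, 4 the other way round, and 8 reached 5 only with both groups pooled. Hist2h2be and Hist2h2aa2, with no read in CONTROL embryos, could be tested only because they were high upon LOF and so were bound to differ, and the counts and the median therefore describe the genes tested and not the 67 members. By class, 3 H2A genes were lower and 1 higher of 10 tested, 3 H2B genes were higher of 11, 1 H4 gene was higher of 9, and 0 of 4 H1 and 9 H3 genes were called (edgeR, with 0 at an unadjusted p under 0.05, and DESeq2 likewise 0). With TMM scaling 2 H3 genes were called higher, Hist1h3f at 1.57 (adjusted p = 0.0246) and Hist2h3c2 at 2.88 (adjusted p = 0.0279), of which Hist2h3c2 reached the filter's 5 embryos only within the LOF group. Over all features 12.8% were called higher with TMM. The other 24 members were not tested, of which 6 had no read in the 18 embryos and none had more than 13.

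Within a class the genes were spread differently around 0. Hist2h2be and Hist2h2aa2 had no read in CONTROL, so their fitted values are left out of the ranges here. The log2 fold changes ran from 0.02 to 3.37 in H2B (median 1.02) and from -0.43 to 1.93 in H3 (median 0.75). All 11 tested H2B genes were above 0, but Hist1h2bk, Hist1h2bp and Hist2h2be reached the filter's 5 embryos only within the LOF group. Such signs, and the medians, which count every tested gene, are therefore partly set by the filter. In H2A the log2 fold changes ran from -1.57 to 1.46 (median 0.33), with the most abundant genes at the lower end. In H4 they ran from -2.50 to 2.28 (median 0.38), and in H1 from -0.75 to 0.55 (median 0.14). Some range ends are set by the filter too. Hist1h2aa at 1.46 in H2A and Hist2h3c2 at 1.93 in H3 reached the filter's 5 embryos only within the LOF group. Hist2h4 at -2.50 in H4 did so only within the CONTROL group. By cluster, 3 genes were lower and 3 higher of 34 tested in Hist1, and 0 lower and 2 higher of 6 tested in Hist2, where both are the genes without CONTROL reads named above, so that the clusters are not compared, while the 3 tested genes of Hist3 and Hist4 were not called.

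Hist1h2ap stood at 9.42, 38.1 and 129 normalized counts (lowest, median and highest) in TBP LOF embryos and at 47.2, 144 and 255 in CONTROL embryos. All 9 LOF embryos lay below the CONTROL median and 5 below the lowest CONTROL embryo, although the groups overlapped. The fitted log2 fold change was -1.53 (SE 0.38, adjusted p = 0.00109).

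Hist1h2ao ran 0, 38.6 and 148 normalized counts upon TBP LOF against 45.1, 103 and 283 in CONTROL. The LOF embryos were below the CONTROL median in 8 of 9 cases, with overlap between the groups. This gave -1.55 on the log2 scale (SE 0.41, adjusted p = 0.0023). With the reads of both near-identical genes added, a step chosen after seeing the data, the fit gave -1.53 (SE 0.31, adjusted p = 9.91e-05), so the call held however the reads were divided between them.

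Hist1h2an, the third H2A gene called lower, lies at chr13:21786826-21787218. Of its 100-base windows 83.3% also occur in other genes, so the source of its reads is uncertain too. It ran 4.10, 6.12 and 42.9 normalized counts upon TBP LOF and 10.1, 28.9 and 48.7 in CONTROL, or -1.57 ± 0.45 on the log2 scale (SE, adjusted p = 0.00428). LOF embryos were below the CONTROL median in 8 of 9 cases and below the lowest CONTROL embryo in 6, and only embryo 8 exceeded that median. Without embryo 8 the log2 fold change was -2.17.

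Part of the fall of these H2A genes was shared by most of the features tested. Relative to the median of all features, the log2 fold changes were -0.83 for Hist1h2ao, -0.81 for Hist1h2ap and -0.86 for Hist1h2an. With TMM scaling, which sets the bulk of genes level, the median of all features moved from -0.72 to 0.11 and the calls were lost. Hist1h2ao then stood at -0.69 (adjusted p = 0.209), Hist1h2ap at -0.84 (adjusted p = 0.0756) and Hist1h2an at -0.85 (adjusted p = 0.0959), with 12.7% of all features called lower and 12.8% higher.

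Hist1h2bp, an H2B gene at chr13:21787461-21789213, gave the largest rise of the members called on more than 100 reads. It ran 1.21, 20.6 and 43.6 normalized counts upon TBP LOF and 0, 0 and 5.19 in CONTROL, from 217 reads in 9 of 9 LOF embryos and 23 reads in 3 of 9 CONTROL embryos. All but 1 of the LOF embryos exceeded the highest CONTROL embryo. The fitted log2 fold change was 3.37 (SE 0.63, adjusted p = 2.44e-05), and 4.07 with TMM. Only the LOF group by itself reached the 5 embryos with a read that the filter asked for, and the call was also made with no filter.

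Hist1h4i, the leading H4 gene at chr13:22040636-22041362, ran 9.53, 37.9 and 162 normalized counts upon TBP LOF and 0, 4.28 and 40.6 in CONTROL. Every LOF embryo lay above the CONTROL median and 4 of 9 above the highest CONTROL embryo. The difference was 2.28 on the log2 scale (SE 0.54, adjusted p = 0.000598), and 3.18 with TMM. Without CONTROL embryo 2, the highest CONTROL embryo, it was 3.00, and without LOF embryo 10 it was 1.78.

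The other 3 genes called higher rested on few reads, and for the first 2 the filter fixed the direction, so only their reads are given. Hist2h2be (H2B) had 13 reads in 5 LOF embryos and none in CONTROL. Hist2h2aa2 (H2A) also had 13 reads in 5 LOF embryos and none in CONTROL, and its whole transcript occurs in other genes, so its reads cannot be placed with certainty. Hist1h2bm (H2B) had 31 reads in LOF and 2 in CONTROL embryos, a ratio of 10.5 with a 95% counting interval of 2.67 to 90.5 (adjusted p = 0.0242). Of its LOF reads, 21 came from embryo 1, and without that embryo it stood at 1.604 on the log2 scale (adjusted p = 0.309).

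**Figure D3:**
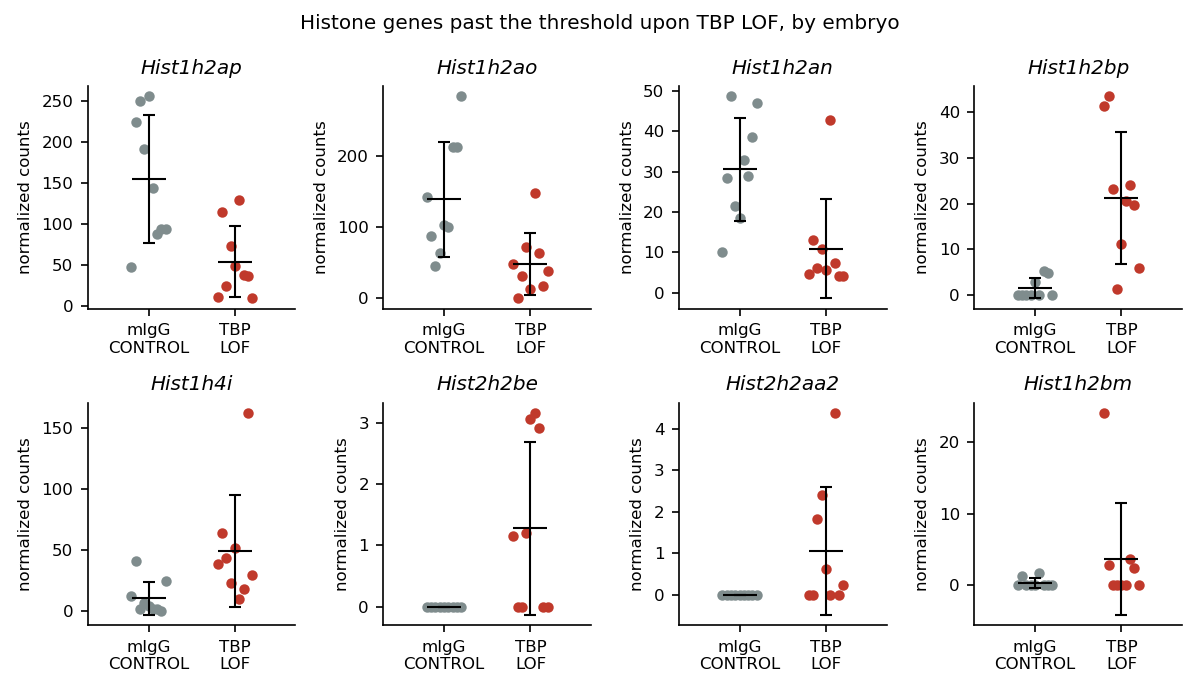
Normalized counts (ERCC scaling) in each of 9 TBP LOF and 9 mIgG CONTROL embryos for the 8 histone genes called by the test, with the mean ± SD in black. Hist1h2ap, Hist1h2ao and Hist1h2an sit lower upon TBP LOF, and Hist1h2bp and Hist1h4i sit higher.

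Hist1h2an and Hist1h2bp moved in opposite directions although they are neighbours, with the doubt about the reads of Hist1h2an given above. They are transcribed away from each other from GENCODE starts 242 bases apart. The region printed above ends at the RefSeq start of Hist1h2an, 30 bases upstream of its GENCODE start, and its single TATAA faces that gene but lies outside the searched window when counted from the GENCODE start. Hist1h2bp had more reads than Hist1h2an in 7 of 9 TBP LOF embryos and in 0 of 9 mIgG CONTROL embryos. The reverse order was usual upon FOXJ3 LOF as well, where Hist1h2bp exceeded Hist1h2an in 3 of 16 embryos, and in rIgG CONTROL, where it did so in 1 of 13. Over each group the reads of Hist1h2an and Hist1h2bp were 100 and 217 upon TBP LOF, 287 and 23 in mIgG CONTROL, 138 and 33 upon FOXJ3 LOF, and 91 and 33 in rIgG CONTROL. Hist1h2ao and Hist1h2ap also face H2B genes across 267 and 235 bases, but these partners, Hist1h2bq and Hist1h2br, had only 12 and 16 reads over all 47 embryos and were not tested.

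Among the other members leading per kb no change passed the test upon TBP LOF. Hist3h2ba ran 0, 6.89 and 15.97 normalized counts in LOF embryos and 0, 1.74 and 8.06 in CONTROL (log2 fold change 1.38 ± 0.72, SE), and Hist1h2bk ran 1.22, 5.74 and 18.3 against 0, 0 and 14.9 (1.02 ± 0.69). Hist1h4n ran 0, 3.06 and 20.3 against 0, 0 and 9.48 (1.98 ± 0.87, adjusted p = 0.0791). These 3 genes passed the threshold with TMM, but Hist1h2bk and Hist1h4n reached the filter's 5 embryos only within the LOF group, where they were higher. Hist1h4c, with 2.45, 7.94 and 30.5 normalized counts against 0, 4.75 and 29.5, gave 0.38 ± 0.61.

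The H3 and H1 leaders per kb overlapped widely between the groups. Hist1h3g gave a log2 fold change of -0.43 ± 0.66 (SE), Hist2h3b 0.27 ± 0.75 and Hist1h3f, which passed the threshold with TMM as given above, 0.75 ± 0.60. Hist1h1a, the linker histone with the most reads, ran 0.241, 9.19 and 23.2 normalized counts upon TBP LOF and 1.43, 5.42 and 17.4 in CONTROL (0.55 ± 0.60). Hist1h1c gave -0.07 ± 0.65 and Hist1h1b -0.75 ± 0.82, and with standard errors of this size a change of about 2-fold could not be told from none.

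Chosen after their values were seen, 2 further genes lay just outside the threshold. Hist1h2bc (H2B) stood at 1.76 ± 0.72 (SE, adjusted p = 0.0547) and passed with TMM, at 2.99 (adjusted p = 0.00492). Of its LOF reads, 59 came from embryo 9 and 84 from embryo 11. Hist2h4 had 3 reads in LOF and 15 in CONTROL embryos, a ratio of 0.135 with a 95% counting interval of 0.0251 to 0.479 (adjusted p = 0.0657). It reached the filter's 5 embryos only within the CONTROL group, where it was higher, so its direction is partly set by the filter.

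**Figure D4:**
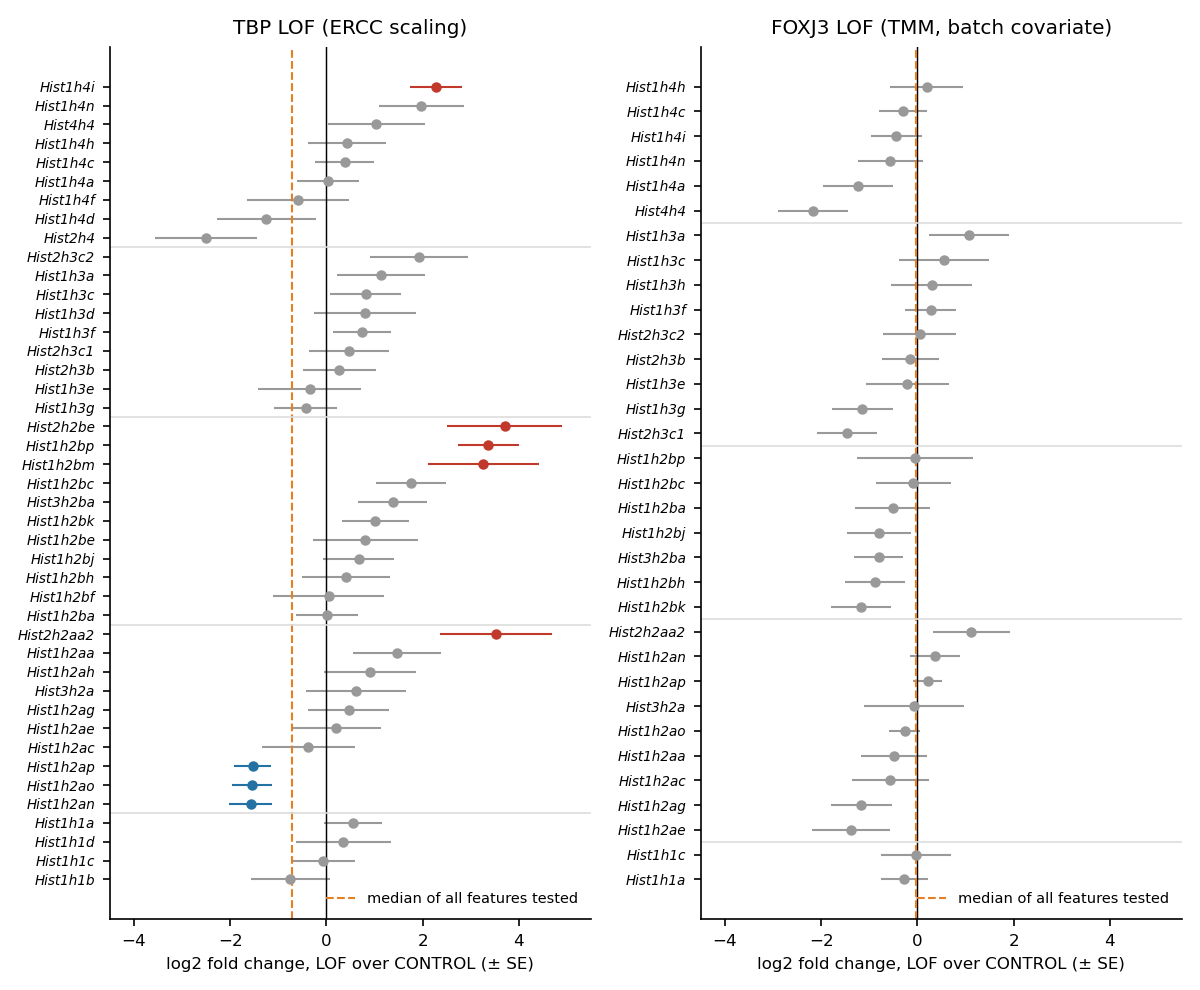
Log2 fold change (LOF over CONTROL) of each histone gene tested upon TBP LOF and upon FOXJ3 LOF, in blocks for H4, H3, H2B, H2A and H1 from the top, with SE as bars and genes past the threshold in red (higher) or blue (lower). For TBP LOF, Hist2h2be and Hist2h2aa2 are drawn at fitted values although CONTROL had no read, so the size of their change is not known. A dashed line marks the median of all features, -0.72 for TBP LOF, where 37 of 43 genes lie above it, and -0.03 for FOXJ3 LOF, where no gene is coloured.

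The class sums shifted against each other upon TBP LOF, in H2A and H4 through few genes. The sum of H2A genes was 130 ± 87.2 normalized counts upon TBP LOF and 332 ± 67.6 in CONTROL (SD, n = 9 each), the H2B sum was 66.1 ± 41.7 against 20.2 ± 10.95, and the H4 sum was 81.7 ± 47.7 against 36.0 ± 25.2. Without Hist1h2ao and Hist1h2ap the H2A sum was 27.4 ± 16.03 upon LOF and 39.5 ± 14.3 in CONTROL. In this remainder Hist1h2an averaged 10.95 upon LOF and 30.6 in CONTROL, and the other H2A genes together were not lower upon LOF. Without Hist1h4i the H4 sum was 33.0 ± 23.5 upon LOF and 25.7 ± 17.03 in CONTROL, within the spread between embryos, and without Hist1h2bp the H2B sum was 44.9 ± 31.04 and 18.7 ± 11.2. The H1 sum was 18.2 ± 9.88 against 15.8 ± 6.58 and the H3 sum 33.5 ± 14.2 against 23.9 ± 13.02, both within the spread between embryos. In CPM the H3 sum was 23.4 ± 10.08 against 10.7 ± 5.11 and the H1 sum 11.7 ± 4.93 against 7.06 ± 3.11, so how far these classes differ depends on the scaling. With the reads of a class added, the log2 fold changes were -1.37 ± 0.31 (SE) for H2A, 1.69 ± 0.38 for H2B, 1.18 ± 0.35 for H4, 0.47 for H3 and 0.16 for H1, given as a description without a test. All 67 genes together summed to 329 ± 123 normalized counts upon TBP LOF and 428 ± 88.3 in CONTROL, but in CPM the order turned, with 221 ± 47.1 and 193 ± 41.97, and both differences were within the spread between embryos. Without Hist1h2ao and Hist1h2ap the sums were 227 ± 85.9 and 135 ± 51.8 normalized counts.

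Hist1h2ao and Hist1h2ap together took 16.7 to 53.4% of an embryo's histone reads upon TBP LOF (median 25.9%) and 56.7 to 79.9% in CONTROL (median 69.4%), so these groups did not overlap. This share needs no scaling between embryos. In the FOXJ3 series it was 45.4 to 79.7% upon LOF and 24.8 to 79.7% in rIgG CONTROL. The number of histone genes with a read was 29 to 44 per TBP LOF embryo and 16 to 32 per mIgG CONTROL embryo, without correction for depth. No count over all genes is set beside it, so the difference is not shown to be particular to histone genes.

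**Figure D5:**
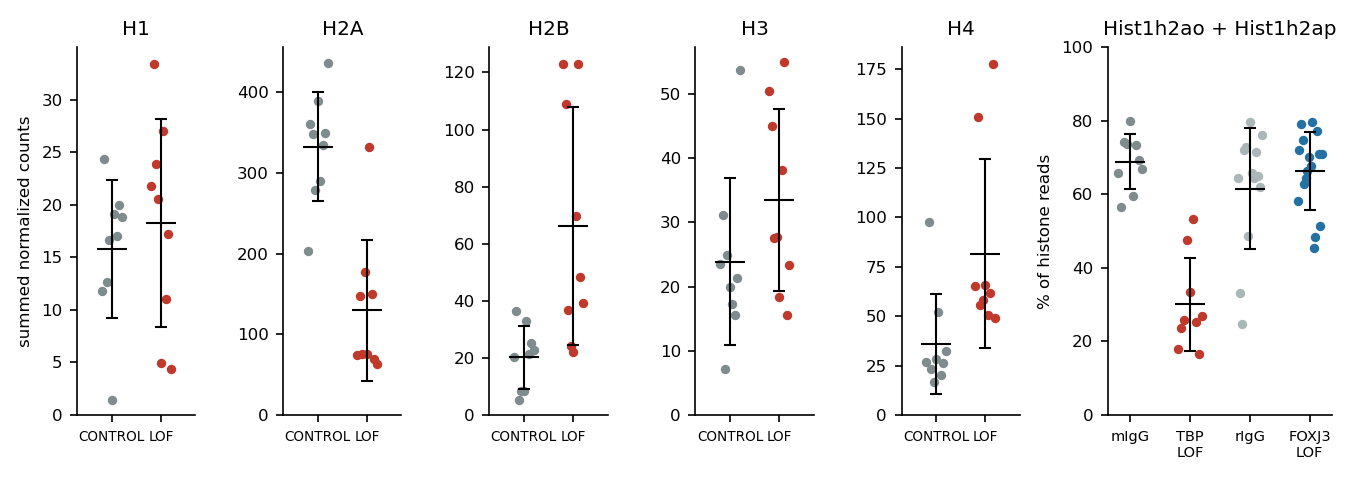
Summed normalized counts of each histone class in the mIgG CONTROL and TBP LOF embryos, and, in the last panel, the percent of histone reads on Hist1h2ao and Hist1h2ap in all 4 groups, with 1 point per embryo and the mean ± SD in black. The H2A sum is mostly lower and the H2B and H4 sums mostly higher upon TBP LOF, and the share on the H2A pair does not overlap between the TBP groups.

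Stage and maternal markers are given for the same embryos, without a test. The summed late 2-cell markers ran 367, 905 and 1054 CPM (lowest, median and highest) upon TBP LOF and 148, 218 and 564 CPM in CONTROL. Tcstv3 took most of this sum (medians 576 and 85.1 CPM), whereas Zscan4c (4.51 and 6.45) and Tdpoz4 (2.33 and 3.604) had lower medians upon LOF. The summed oocyte markers ran 1828, 2555 and 3357 CPM against 763, 1337 and 2304 CPM, mainly from Oosp1 (medians 1672 and 1001 CPM) and Bmp15 (398 and 194), while Zp3 had the lower median upon LOF (19.1 and 41.2). With the ERCC scaling used for the histone genes the groups lay closer, with sums of 543, 973 and 2191 normalized counts upon LOF against 280, 559 and 1222 in CONTROL for the late 2-cell markers, and 1799, 3368 and 5847 against 1650, 3014 and 5354 for the oocyte markers, and the groups overlapped for both. Their part in the histone changes was not tested.

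The factors that make and handle histone mRNA, and the chaperones and importers of histone proteins, fell in several cases upon TBP LOF. Of 27 genes listed, all were tested, 14 were lower and 0 higher (edgeR, with 0 higher at an unadjusted p under 0.05), with a median log2 fold change of -0.79 beside -0.72 over all features, of which 29.7% were called lower. The chaperone set, which here also holds the acetyltransferase Hat1 and the importer Ipo4, counted 6 lower of 8. Translation and decay factors counted 3 of 5, 3′ processing factors 4 of 10 and transcription factors 1 of 4. Eri1, an exonuclease that trims and degrades histone mRNA ends, fell from 76.1 ± 48.4 to 10.7 ± 7.69 normalized counts (SD, n = 9 each; log2 fold change -2.82, adjusted p = 6.08e-07). In the chaperone set Chaf1b stood at -2.46 (adjusted p = 1.43e-05), Ipo4 at -2.28 (adjusted p = 2.2e-06) and Hat1, which acetylates new H4, at -1.96 (adjusted p = 0.000168).

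Slbp, which binds the stem-loops printed above, fell from 246.8 ± 62.1 to 147.8 ± 58.2 normalized counts (log2 fold change -0.74, adjusted p = 0.0473), and Npat stood at -0.92 (adjusted p = 0.0279). Both were close to the median of all features, and with TMM they stood at 0.07 (adjusted p = 0.829) and -0.06 (adjusted p = 0.895). With TMM 5 of the 27 factors were lower and 2 higher, where 12.7% of all features were lower and 12.8% higher, and Eri1 stood at -1.86.

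The calls were also tallied by TATAA in the matched promoters, as a description without a test. Of the genes with a matched promoter, 10 with TATAA were tested, of which 1 was lower and 1 higher, with a median log2 fold change of 0.58. Without it 27 were tested, of which 2 were lower and 3 higher, with a median of 0.43. Counting a TATAA before either the RefSeq or the GENCODE start gave 2 lower and 1 higher of 12 with it, and 1 lower and 3 higher of 25 without it. The lower gene counted without it is Hist1h2ao, whose window before the GENCODE start was not held, so TATAA was not sought there. Among the higher genes without it, Hist2h2aa2 lacks that window too and had no CONTROL read. Hist1h2bp, also among them, passed the filter only within the LOF group. Over all features 29.7% were called lower and 1.34% higher.

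Upon FOXJ3 LOF no histone gene passed the test. The fit compared 16 FOXJ3 LOF with 13 rIgG CONTROL embryos over 19517 genes and TE families, with TMM scaling and library batch as a covariate, so its normalized counts are not on the scale of the TBP embryos. Over all features 0.0102% were called lower and 0% higher. Of 33 histone genes tested, edgeR called 0, with 2 at an unadjusted p under 0.05, and DESeq2 likewise called 0, with 2 unadjusted. The median log2 fold change of the 33 genes was -0.27, beside -0.03 over all features.

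The genes that stood out upon TBP LOF lay within the spread between embryos here. Hist1h2ao ran 0, 108 and 306 normalized counts upon FOXJ3 LOF and 37.4, 110 and 274 in CONTROL (log2 fold change -0.26, adjusted p = 0.962), and Hist1h2ap ran 52.4, 90.9 and 197 against 17.9, 89.8 and 181 (0.21, adjusted p = 0.968). Added together they gave -0.05 (adjusted p = 0.99). Hist1h2an stood at 0.37, Hist1h4i at -0.43 and Hist1h2bp at -0.05. The other 34 members were not tested, of which 3 had no read in these 29 embryos and the highest, Hist1h2ah, had 26.

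The smallest unadjusted p belonged to Hist4h4, named here after its values were seen, at 0, 0 and 2.74 normalized counts upon FOXJ3 LOF against 0, 2.17 and 7.97 in CONTROL. It stood at -2.17 on the log2 scale (SE 0.73, adjusted p = 0.675). The class sums gave -0.14 for H1, -0.07 for H2A, -0.58 for H2B, -0.24 for H3 and -0.50 for H4. Of the 27 factors edgeR called 0, with 3 at an unadjusted p under 0.05, and DESeq2 called 0.

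The library batches of the FOXJ3 embryos gave different medians for the histone genes, -0.72 in batch 1 alone and 0.08 in batch 2 alone. An interaction of LOF with batch called 0 of 33 genes (0% of all features), with 4 at an unadjusted p under 0.05 and a smallest adjusted p of 0.562 (edgeR). With ERCC scaling it called 0, with 2 unadjusted. Whether histone genes responded differently to FOXJ3 LOF and to TBP LOF was not tested, because each experiment has its own controls and scale.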

How the data were processed

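Single embryos were sequenced with Smart-seq+5′. Per the methods of the study, the authors trimmed reads with Trimmomatic, separated transcript 5′ ends from internal fragments, mapped them with STAR 2.7.11a to GRCm38 and counted the second read with TEcount per GENCODE M20 gene, ERCC spike-in and TE family. As deposited by the authors, gene rows hold raw read counts and TE family rows hold estimated counts (expected counts), without normalization, and as all were whole numbers rounding changed none. Not given in the sources used here are the way TEcount divides reads among copies and its strand setting. Of the members, 21 overlap a gene on the opposite strand, 7 overlap a gene on the same strand, and 28 have at least 50% of their 100-base windows in another gene, so single values of these are uncertain. There were no molecular identifiers, so intervals cover counting error only.

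Groups came from the sample labels. The labels give 9 TBP LOF and 10 mIgG CONTROL embryos. Per the methods of the study, embryos came from at least 3 independent experiments, which are not labelled per embryo, so p-values measure the spread between embryos. Embryos needed 500000 reads, 1000 genes, at most 10% mitochondrial and at most 15% ERCC reads. Normalized counts are reads divided by size factors, from the 42 ERCC with a read in every embryo (median of ratios) for TBP and from TMM for FOXJ3. Features with a read in 25% of the embryos entered edgeR 4.0.16 (R 4.3.3, limma 3.58.1), and DESeq2 1.42.0 was an alternative, as were other scalings, filters, quality limits, a replicate block and leaving out each TBP embryo. Plots were drawn with matplotlib 3.10.9, and tables were made with pandas 2.3.3, scipy 1.17.1 and numpy 2.4.6 under Python 3.11.15. On simulated counts with 200 features changed by 2 on the log2 scale, 56% were recovered for the TBP comparison (19356 features) and 72.5% for FOXJ3 (19517 features).

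Members and lists were chosen with earlier results of these data known. Genes named were the 3 highest per class by CPM per kb, every member called, members without reads, and listed factors past the threshold. Counts of single TE insertions were not used.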

Additional observations from a re-analysis of the deposited data

Results flagged for a closer look

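A single embryo stood apart from the rest of its group in 6 of 26 groups of values checked with Dixon's test. Its nominal rate of about 1 in 20 is for normal values, and these are counts on the raw scale. The groups also overlap, as the H2A sum holds Hist1h2an and Hist1h2ao, so no excess over that rate is claimed. TBP LOF embryo 8 had 42.9 normalized counts of Hist1h2an, with the next LOF embryo at 13.1, and 147.7 of Hist1h2ao, with the next at 72.4. The same embryo had an H2A sum of 331.9, with the next at 177.4. TBP LOF embryo 1 had 24.1 normalized counts of Hist1h2bm, with the next at 3.66. TBP LOF embryo 10 had 162.3 of Hist1h4i, with the next at 63.9. In the mIgG CONTROL group, embryo 2 had an H4 sum of 97.5 normalized counts, with the next at 52.1.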

How the results depend on the processing

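Upon TBP LOF the 3 genes called lower became 0 with TMM or with DESeq2 size factors. The 5 called higher became 11 with TMM, 11 with DESeq2 size factors, 8 without a filter, 2 with DESeq2, which gave no adjusted p for Hist2h2aa2 and Hist2h2be, 1 with the stricter filterByExpr filter, which left 4 histone genes tested, and 3 with a replicate block. Over all features 1.34% were called higher in the main fit and 12.8% with TMM, beside 11.6% and 25.6% of the histone genes tested. The share of all features called lower was 29.7% and 12.7%. Such shares are not given for the other settings. The median log2 fold change of 0.47 became 1.37 with TMM, 1.41 with DESeq2 size factors and -1.54 with filterByExpr. Leaving out each of the 18 embryos in turn gave 3 to 4 genes lower and 3 to 8 higher, with 3 without TBP LOF embryo 1 or embryo 9 and 8 without mIgG CONTROL embryo 2. Hist1h2ao, Hist1h2ap, Hist1h2an, Hist1h2bp and Hist1h4i were called in all 18 of these fits, and Hist1h2bp and Hist1h4i also under every other alternative in which they were tested. Upon FOXJ3 LOF every alternative, the replicate block included, called 0. Same-numbered embryos correlated at -0.05 to 0.13 in the TBP experiment and at -0.21 to 0.27 in the FOXJ3 experiment, where the own partner was the best match for 3 of 12 pairs, all in batch 2, so the numbers were not taken to pair embryos. The causes of these shifts were not tested, except that fewer genes were tested with filterByExpr. Depth limits many members, as 14 of 67 had fewer than 10 reads over 47 embryos.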
